A study of Mus musculus with 2 samples.

Results

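The sarcomere, the contractile unit of striated muscle, is built from proteins that exist as isoforms of fast, slow, cardiac and developing fibres. The present data cover 57 genes of these proteins in gastrocnemius muscle of mice that lack PGC-1β in myofibres. The genes were chosen by symbol from a list of myosin heavy and light chains, troponins, tropomyosins, actins, and proteins of the Z-disc and the M-band. The rule used no measured value, but the list was made with earlier results of these data known. All 57 were found on the arrays, among 19936 named nuclear genes.

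The PGC-1β(i)skm-/- mice carry 2 floxed PGC-1β alleles (L2/L2) and 1 copy of the HSA-Cre-ERT2 transgene. The human skeletal actin promoter drives the tamoxifen-dependent Cre recombinase in skeletal myofibres only, and recombination removes exon 5. Their controls were male littermates with the same floxed alleles but without the transgene, which GEO's labels call wild-type. Both groups were on the C57BL/6 background, were given tamoxifen from 7 weeks of age (5 daily doses of 1 mg), and were analysed at 8 weeks, 1 week after the last dose. Each group is represented by 1 Affymetrix Mouse Gene 1.0 ST array, hybridized with RNA of 3 pooled mice. The transgene and the deletion occur together and cannot be told apart here. With 1 array per genotype there is no error from animals and no test, so every difference below compares these 2 arrays, and the number of arrays limits the precision.

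Muscle fibres differ in the speed at which their myosin splits ATP. Type IIB, IIX and IIA fibres use the fast myosin heavy chains of Myh4, Myh1 and Myh2, and type I fibres use the slow chain of Myh7, each combined with matching light chains, troponins and Z-disc proteins. Mouse gastrocnemius is a predominantly fast muscle. Embryonic and perinatal isoforms give way to adult ones after birth and return in regenerating fibres. PGC-1β is a transcriptional coactivator known for its control of mitochondrial genes, and its overexpression has been linked to type IIX fibres.

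The values are log2 signals per probe set, computed by RMA, and the log2 difference is the PGC-1β(i)skm-/- signal minus the control signal. A signal ratio (mutant over control) of at most 0.8 counted as lower, and one of at least 1.2 as higher. The targeted gene Ppargc1b had a log2 signal of 7.06 on the PGC-1β(i)skm-/- array and 7.87 on the control array, a ratio of 0.569. The related coactivator gene Ppargc1a had signals of 10.29 in the mutant and 10.18 in the control. The 8 markers of skeletal myofibres outside the member list, such as Ckm, encoding muscle creatine kinase, and Pvalb, encoding parvalbumin, were bright on both arrays, between 9.90 and 13.86 in the mutant and between 9.89 and 13.83 in the control, with log2 differences between -0.03 and 0.04. In whole muscle, fewer cells of a type and less RNA per cell cannot be told apart. Probes differ in how strongly they bind, so that the signal of a gene is compared between arrays and not with that of another gene.

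The promoters of the 3 adult fast myosin heavy chain genes and of the cardiac actin gene Actc1 are shown because Myh1 had the largest decrease among bright members and Actc1 the largest increase among the brightest ones. Each window runs from 250 bases before to 50 bases after a transcription start in RefSeq (GRCm38.p6) and is written 5′ to 3′ on the strand of the gene. Myh1 lies at chr11:67199852-67200151 on the plus strand, Myh4 at chr11:67237562-67237861 on the plus strand, Myh2 at chr11:67170777-67171076 on the plus strand and Actc1 at chr2:114052826-114053125 on the minus strand. Capitals mark the TATA box (TATAAA), the element of MEF2 factors and the CArG box of serum response factor, the last 2 given by name.
Myh1: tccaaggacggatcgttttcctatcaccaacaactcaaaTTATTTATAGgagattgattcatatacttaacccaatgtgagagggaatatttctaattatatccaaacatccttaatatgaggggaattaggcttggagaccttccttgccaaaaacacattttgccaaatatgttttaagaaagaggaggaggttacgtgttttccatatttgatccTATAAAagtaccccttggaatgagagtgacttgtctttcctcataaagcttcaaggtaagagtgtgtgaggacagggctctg
Myh4: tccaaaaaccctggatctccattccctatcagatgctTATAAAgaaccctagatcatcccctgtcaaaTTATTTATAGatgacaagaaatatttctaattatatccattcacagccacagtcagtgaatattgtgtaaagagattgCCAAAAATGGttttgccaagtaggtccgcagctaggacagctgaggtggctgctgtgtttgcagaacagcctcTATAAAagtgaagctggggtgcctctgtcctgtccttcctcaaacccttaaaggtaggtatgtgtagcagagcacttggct
Myh2: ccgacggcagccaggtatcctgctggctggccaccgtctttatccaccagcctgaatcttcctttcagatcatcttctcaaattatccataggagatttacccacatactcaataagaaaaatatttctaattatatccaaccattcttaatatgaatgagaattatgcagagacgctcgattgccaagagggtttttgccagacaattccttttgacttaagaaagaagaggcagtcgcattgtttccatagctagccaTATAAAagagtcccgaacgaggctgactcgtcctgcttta
Actc1: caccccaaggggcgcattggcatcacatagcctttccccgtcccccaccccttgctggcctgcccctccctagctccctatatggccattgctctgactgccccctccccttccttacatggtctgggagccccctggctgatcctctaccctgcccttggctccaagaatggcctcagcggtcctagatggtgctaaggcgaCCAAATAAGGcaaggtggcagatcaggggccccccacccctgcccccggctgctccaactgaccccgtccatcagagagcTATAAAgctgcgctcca

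Both strands were searched and motifs were allowed to overlap. The TATA box letters were found once in the windows of Myh2 and Actc1, at 2 places for Myh1 and at 3 for Myh4, in both of these also on the opposite strand within the marked MEF2 element. The MEF2 element was found for Myh1 and Myh4, and the CArG box for Myh4 and Actc1. RefSeq promoters matched 45 of the 57 members, with 59 windows. The CArG box occurred in 16.9% of these and in 1.63% of all 32851 promoter windows, and the MEF2 element in 11.9% of member windows and 3.19% of all. The site AAGGTCA of oestrogen-related receptors, nuclear partners of PGC-1 coactivators, occurred in 3.39% of member windows, those of Myh7b and Tpm3, and in 4.72% of all windows. The E-box CANNTG, bound by myogenic factors, was found in 83.1% of member windows and 72.3% of all. A match describes the letters of the window and does not show that a factor binds there.

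Most sarcomere genes had nearly the same signal on both arrays. None of the 57 members counted as lower, where 0.652% of all genes did (130 of 19936). A single member, Xirp1, counted as higher, which is 1.75% of the members, against 1.64% of all genes. The log2 difference was under 0.1 in size for 48 members (84.2%), against 66.0% of all genes. Members with a mean log2 signal of 9 or more numbered 47, and 41 of them (87.2%) were under 0.1, against 76.8% of the 2831 genes of such signal.

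The differences that remained were more often above than below 0. Of the 57 members, 18 (31.6%) lay below 0, against 50.2% of all genes. Among the members with a mean signal of 9 or more the share was 31.9% (15 of 47), against 56.5%. The 2831 genes of such signal had a median log2 difference of -0.0115. They include nuclear genes of mitochondrial proteins, whose part in this contrast was not tested. In this range of signal 0.954% of all genes counted as lower, against none of the 47 members, and 0.6% as higher, against 1 member. The median log2 difference was 0.03 for the 57 members and -0.00055 for all genes.

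**Figure D1:**
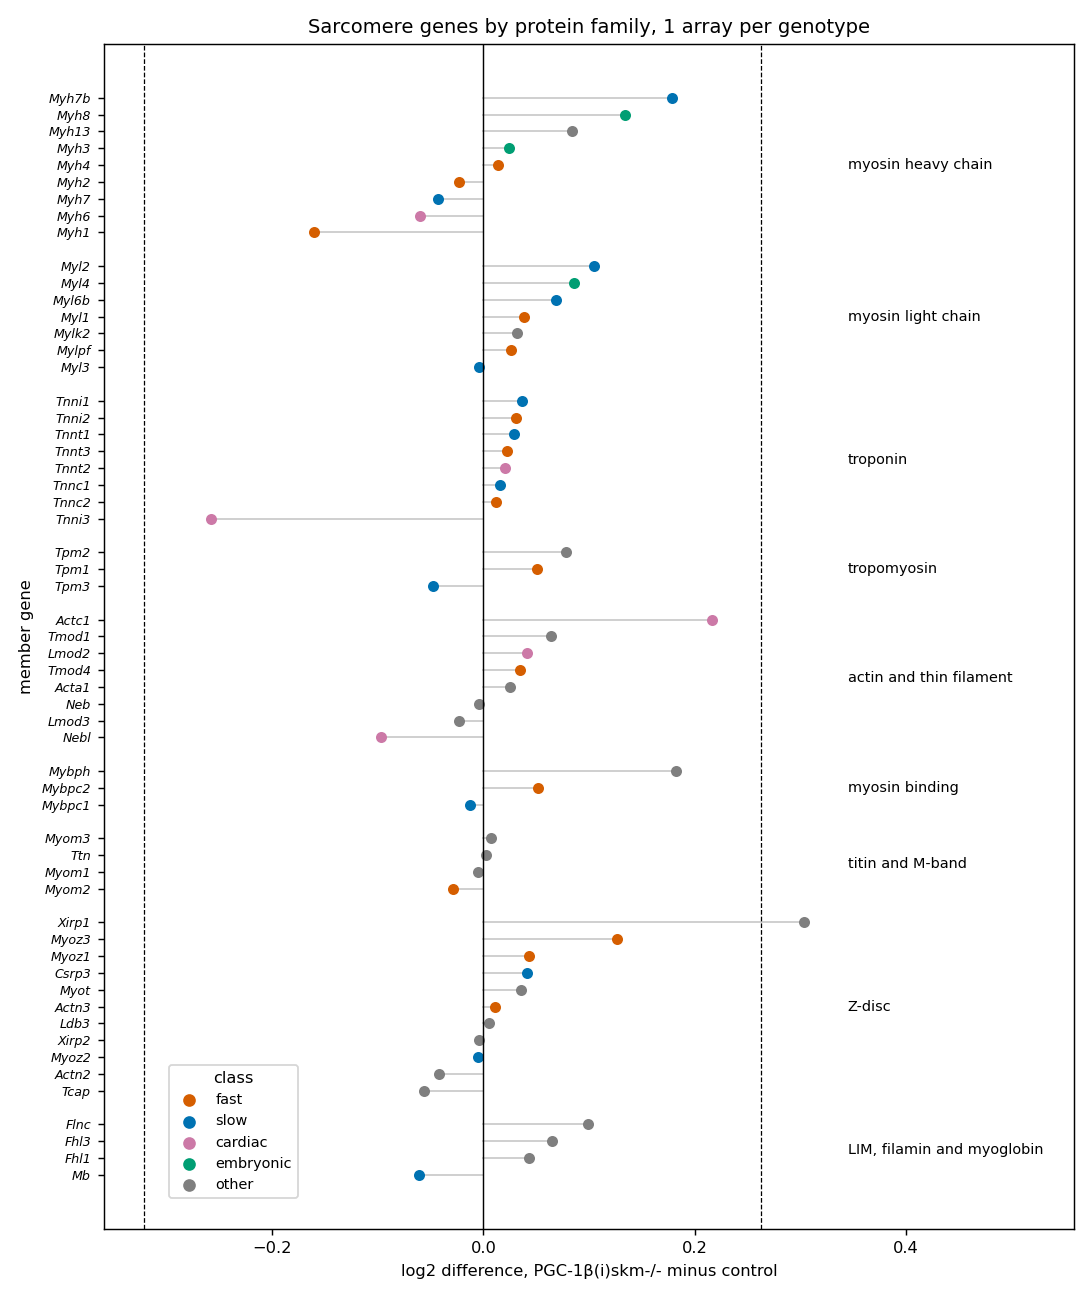
The 57 member genes (vertical axis, by protein family, coloured by isoform class) are plotted at their log2 difference on the horizontal axis, PGC-1β(i)skm-/- minus control. Dashed lines stand at ratios of 0.8 and 1.2. Xirp1, at 0.30, is the single point past a dashed line, and 48 points lie within 0.1 of 0.

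The myosin heavy chains, the motors of the thick filament, gave a near-equal signal for 3 of the 4 adult limb isoforms. Myh4, the type IIB chain, had log2 signals of 13.57 on the PGC-1β(i)skm-/- array and 13.56 on the control array, a ratio of 1.01. Myh2, the type IIA chain, had 12.78 in the mutant and 12.81 in the control. Myh7, the chain of slow fibres, had 10.58 in the mutant and 10.62 in the control. These 3 genes thus lay within 0.05 of equality.

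Myh1, the type IIX chain, was the exception among the adult isoforms on these arrays. Its log2 signal was 12.71 in PGC-1β(i)skm-/- muscle and 12.87 in control muscle, a difference of -0.16 and a ratio of 0.894. Among the 2831 genes with a mean signal of 9 or more, 193 had a larger decrease, and among the 204 with a mean signal of 12 or more, 12 did. By quantitative PCR on replicate mice, the paper found transcripts of the type IIX chain unchanged in mutant gastrocnemius. The ages measured there include that of the arrays. In older mice it also found no difference in fibres stained for this chain. Whether the Myh1 value reflects any change of type IIX fibres was not tested here.

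Of the remaining 5 heavy chains, 4 had log2 differences above 0, at ratios below 1.2. Myh7b, a slow-tonic myosin, had signals of 6.88 in the mutant and 6.70 in the control, a ratio of 1.13, and Myh8, the perinatal chain, 7.89 in the mutant and 7.75 in the control, a difference of 0.13. The probe set of Mir499, a microRNA encoded in an intron of Myh7b, was at 4.30 in the mutant and 4.33 in the control. Myh3, the embryonic chain, had 6.43 in the mutant and 6.41 in the control. Myh6, a cardiac chain, had 6.91 in the mutant and 6.97 in the control, and Myh13, of extraocular muscle, 5.36 in the mutant and 5.28 in the control. Myh13 and the probe set of Mir499 thus stayed below the median of all probe sets, 6.02 on the mutant and 6.00 on the control array. The Mir499 value is therefore not read as a measure of Myh7b.

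In the mouse genome Myh3, Myh2, Myh1, Myh4, Myh8 and Myh13 follow each other on chromosome 11 with no other protein-coding gene between them. Within this row Myh1, at -0.16, lay between Myh2 at -0.02 and Myh4 at 0.01, and Myh8 beyond Myh4 was at 0.13. These genes resemble each other in sequence, and hybridization of one transcript to probes of another was not tested.

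**Figure D2:**
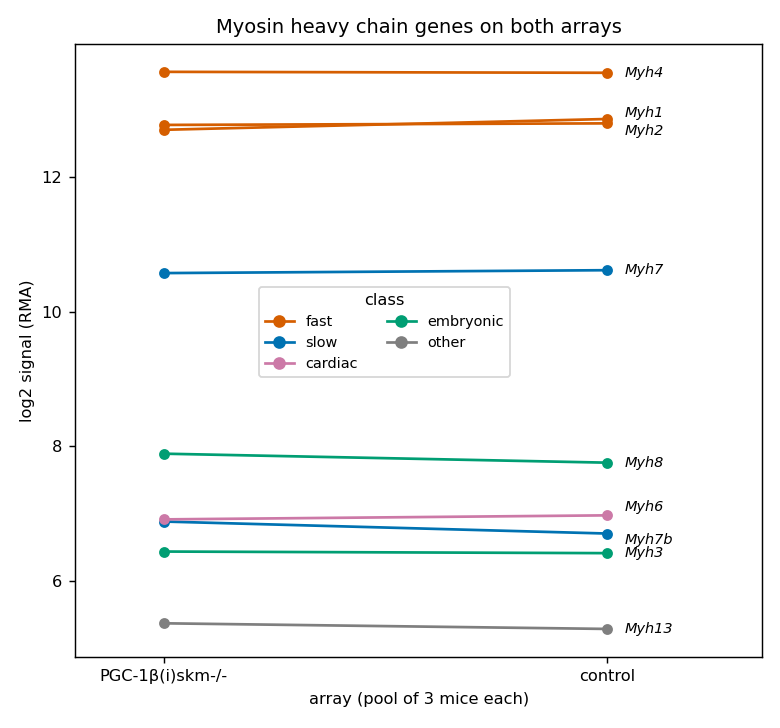
Log2 signal (vertical axis) of the 9 myosin heavy chain genes on the PGC-1β(i)skm-/- array (left) and the control array (right), each from a pool of 3 mice, coloured by isoform class. Heights of different genes cannot be compared. The log2 difference, left minus right, is -0.16 for Myh1, 0.18 for Myh7b and 0.13 for Myh8.

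The myosin light chains stabilize the lever arm of the motor and tune its force. Myl1, the essential chain of fast fibres, had signals of 13.56 in the mutant and 13.52 in the control, and Mylpf, the regulatory chain of fast fibres, 12.97 in the mutant and 12.95 in the control. Of the slow chains, Myl3 had 10.79 on both arrays and Myl2 had 11.28 in the mutant and 11.17 in the control, a ratio of 1.08.

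Myl4, the essential chain of embryonic muscle and of the atrium, had signals of 9.92 in the mutant and 9.84 in the control, a ratio of 1.06. Myl6b, an essential chain of slow fibres and non-muscle cells, had 7.08 in the mutant and 7.02 in the control. Mylk2, the kinase that phosphorylates the regulatory chains of skeletal muscle, had 11.91 in the mutant and 11.88 in the control. Of the 7 genes of this family, 1 was below 0.

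The troponins, which switch the thin filament on when calcium is released, had nearly equal signals in their adult skeletal forms. All 3 fast subunits and all 3 slow ones had log2 differences between 0.01 and 0.04. Troponin C, which binds the calcium, was at 13.53 in the mutant and 13.52 in the control for the fast Tnnc2, and at 9.98 in the mutant and 9.97 in the control for the slow Tnnc1. Troponin I, which holds the filament off at rest, was at 13.18 in the mutant and 13.15 in the control for the fast Tnni2, and at 9.81 in the mutant and 9.77 in the control for the slow Tnni1. Troponin T, which anchors the complex to tropomyosin, was at 13.52 in the mutant and 13.50 in the control for the fast Tnnt3, and at 10.11 in the mutant and 10.08 in the control for the slow Tnnt1.

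The cardiac troponins differed from each other. Tnni3 had signals of 5.94 in the mutant and 6.19 in the control, the largest decrease of any member (ratio 0.836), at a dim signal near the median of the arrays. Its neighbour on chromosome 7, Tnnt1, had a ratio of 1.02. Cardiac troponin T, Tnnt2, had 7.46 in the mutant and 7.44 in the control. Detection above background was not measured.

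Tropomyosin lies along actin and blocks the myosin sites at rest. Tpm1, the alpha form of fast fibres and heart, had signals of 13.62 in the mutant and 13.57 in the control, and Tpm2, the beta form, 13.07 in the mutant and 12.99 in the control. Tpm3, the alpha form of slow fibres, had 10.90 in the mutant and 10.94 in the control with its brightest probe set. Its other 3 probe sets had log2 differences of 0.03, 0.11 and 0.10. RefSeq annotates several pseudogenes of Tpm3, and which transcripts these probe sets read was not tested.

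Among the actins, Acta1, the skeletal alpha actin that makes up the thin filament of adult fibres, had signals of 13.91 in the mutant and 13.88 in the control. Actc1, the cardiac alpha actin, which skeletal muscle uses during development, had 13.50 in the mutant and 13.28 in the control, a ratio of 1.16. Of the 46 genes with a mean signal of 13 or more, Actc1 had the largest increase, and the next, Tpm2, was at 0.08. Among the 2831 genes with a mean signal of 9 or more, 29 had a larger increase than Actc1, and among all 19936 genes, 662 did. The coding sequences of both actins are nearly identical, and hybridization of one to probes of the other was not tested.

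The proteins along and at the ends of the thin filament were within 0.1 of 0 with their brightest probe sets. Neb, encoding nebulin, had signals of 13.42 in the mutant and 13.43 in the control. The tropomodulins, which cap the pointed end, were at 11.96 in the mutant and 11.90 in the control for Tmod1 and at 12.99 in the mutant and 12.96 in the control for Tmod4. The leiomodins, which start new filaments, had differences of 0.04 for Lmod2 and -0.02 for Lmod3. A dimmer probe set of Tmod1 was at -0.10. The 2 probe sets of Nebl, encoding nebulette, disagreed, at -0.10 and 0.26, both at signals under 5.5.

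The myosin-binding proteins lie on the thick filament and slow or release the myosin heads. Mybpc2, the fast form of myosin-binding protein C, had signals of 13.16 in the mutant and 13.10 in the control, and Mybpc1, the slow form, 12.19 in the mutant and 12.20 in the control. Mybph, a smaller relative of these proteins, had 10.75 in the mutant and 10.57 in the control, a ratio of 1.13. Of the 2831 genes with a mean signal of 9 or more, 48 had a larger increase than Mybph.

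**Figure D3:**
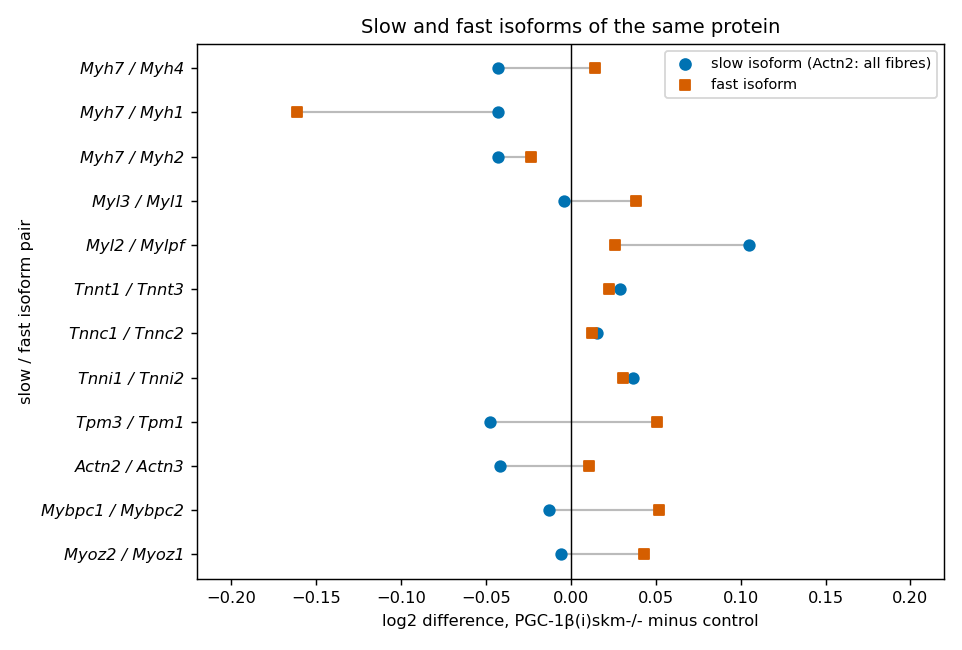
The slow isoform (circle; for Actn2 the form of all fibres) and the fast isoform (square) of 12 pairs (vertical axis), joined by a line, are placed by their log2 difference on the horizontal axis, mutant minus control. The troponin pairs nearly coincide, and the widest gaps are 0.12 for Myh7 and Myh1 and -0.10 for Tpm3, by its brightest probe set, and Tpm1.

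Setting each slow isoform beside its fast counterpart asks whether the balance of fibre types differed between the pools. The slow minus fast value is the log2 difference of the slow gene less that of the fast gene, so that a positive value means a relative gain of the slow isoform in the mutant. Over 12 pairs, 3 of which share Myh7, it was positive in 5 and negative in 7, with a median of -0.03. In 1 of these the partner of fast Actn3 is Actn2, which all fibres use, and over the 11 pairs without it 5 were positive and 6 negative, with a median of -0.02. Over the 3 pairs in which both genes had a mean log2 signal under 13 the median was 0.0793. It lay within 0.1 of 0 in 11 pairs. The exception was Myh7 with Myh1, at 0.12, where the fast gene had the difference of -0.16.

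The 3 troponin pairs were at 0.0063 for troponin T, 0.0031 for troponin C and 0.0063 for troponin I. The regulatory light chains, Myl2 with Mylpf, gave 0.08, and the essential light chains, Myl3 with Myl1, gave -0.04. Tropomyosin, Tpm3 with Tpm1, gave -0.10 with the brightest probe set of Tpm3, but -0.02, 0.06 and 0.05 with its other 3 and -0.0033 with the mean of all 4, so that its sign depends on the probe set. Myosin-binding protein C gave -0.06, alpha-actinin -0.05 and calsarcin -0.05.

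By class, the 15 fast isoforms had a median log2 difference of 0.03, with 3 below 0, and the 13 slow isoforms a median of 0.02, with 6 below 0. The slow class includes Mb (myoglobin), which is not a filament protein, and Tpm3 by its brightest probe set, both below 0. The 3 embryonic isoforms, Myh3, Myh8 and Myl4, were all above 0, at 0.02, 0.13 and 0.09. The 6 cardiac isoforms were split, with Actc1 at 0.22 and Tnni3 at -0.26 as the extremes and 3 below 0.

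The Z-disc, which anchors thin filaments of neighbouring sarcomeres, held the largest increase. Xirp1, encoding the actin-binding protein Xin, which is known to be induced in damaged and regenerating fibres, had signals of 9.36 in PGC-1β(i)skm-/- muscle and 9.05 in control muscle, a ratio of 1.23. Among the 2831 genes with a mean signal of 9 or more, 7 had a larger increase, and among all 19936 genes, 189 did. Its relative Xirp2 had a signal of 12.52 in the mutant and 12.53 in the control, so that the difference was not shared by the 2 genes.

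Other components of the Z-disc were within 0.1 of 0, except Myoz3. Actn3, the alpha-actinin of fast fibres, had signals of 13.46 in the mutant and 13.45 in the control, and Actn2, the form of all fibres, 12.52 in the mutant and 12.56 in the control. Of the calsarcins, which link alpha-actinin to calcineurin, Myoz1 of fast fibres was at 0.04, Myoz2 of slow fibres at -0.0056 and Myoz3 of fast fibres at 0.13, with signals of 11.38 in the mutant and 11.25 in the control for Myoz3. Tcap, encoding the titin cap, was at -0.06, Myot, encoding myotilin, at 0.04, Ldb3, the Z-disc protein Cypher, at 0.0053 and Csrp3, the muscle LIM protein, at 0.04.

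Titin and the M-band, which hold the thick filament in the centre of the sarcomere, gave near-equal signals. Ttn had a log2 signal of 13.22 on both arrays, a difference of 0.0021. Myom1, Myom2 and Myom3, the myomesins that cross-link thick filaments, were at -0.0054, -0.03 and 0.0075. All 4 genes thus stayed within 0.05 of 0.

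Mb, encoding myoglobin, the oxygen store of oxidative fibres, had signals of 13.05 in the mutant and 13.11 in the control, a ratio of 0.959. Flnc, encoding the muscle filamin, which binds Xin, had 11.41 in the mutant and 11.31 in the control, a ratio of 1.07. Fhl1 and Fhl3, LIM proteins of fibres, were at 0.04 and 0.07.

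**Figure D4:**
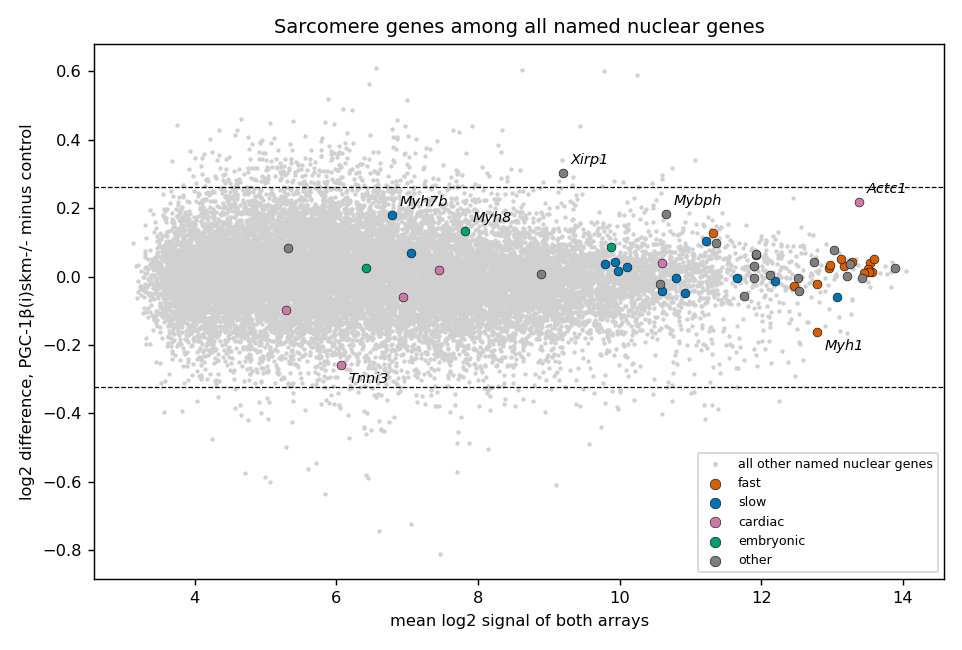
For the 57 members, coloured by class, and all other named nuclear genes, in grey, the mean log2 signal of both arrays runs along the horizontal axis and the log2 difference, mutant minus control, along the vertical one. Dashed lines stand at ratios of 0.8 and 1.2. Most members lie to the right, where the grey cloud is narrow, and Actc1 stands above all other genes with a mean signal of 13 or more.

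Position in the range of signals bears on these values. Of the 57 members, 16 had a mean log2 signal of 13 or more, near the highest signal of any probe set, 14.23 in the mutant and 14.25 in the control. Of these 16 members, 2 (12.5%) were below 0, against 13 of the 46 genes (28.3%) with such a signal. The 46 genes include the 16 members. The normalization between arrays matches their distributions of signal, the brightest values included, and its part in the small differences of these members was not tested.

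Other genes of the contractile apparatus, from lists outside the 57 members, gave a similar picture. Of 43 measured genes of sarcomere structure, assembly and maintenance, 9 were below 0, with a median of 0.04, none counted as lower and 1 as higher. That gene was Ankrd1, encoding an ankyrin-repeat protein of titin known to be induced by stretch and injury, with signals of 8.51 in the mutant and 8.15 in the control (ratio 1.29). The next was Klhl40, a protein that stabilizes nebulin and leiomodin 3, with 8.83 in the mutant and 8.59 in the control. Mybpc3, the cardiac myosin-binding protein C, was dim, with 5.75 in the mutant and 5.52 in the control. Of 23 contractile genes of smooth muscle and non-muscle cells, 7 were below 0 and none was past either ratio, with Tpm4 at -0.16 and Myh10 at 0.14. Des and Lmod1 stand in both of these lists.

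Genes that mark fibre types outside the sarcomere were set beside the isoforms. The 14 genes of fast fibres, of calcium release and glycolysis among others, had a median of 0.02 with 4 below 0, led by Ampd1, encoding muscle AMP deaminase, at 0.12 and Sypl2 at 0.09. The 12 measured genes of slow fibres, of oxidative and fatty acid metabolism and calcium handling among others, had a median of -0.03 with 9 below 0. They thus do not mark the slow fibre type alone. Among them Ldhb, the lactate dehydrogenase subunit of oxidative tissue, had signals of 9.81 in the mutant and 10.04 in the control, and Sln, encoding sarcolipin, was dim, with 5.80 in the mutant and 5.66 in the control. Of the 13 members classed as slow, Mb among them, 6 were below 0. The difference between these lists was not tested.

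Of 23 regulators of fibre type, 13 were below 0, with a median of -0.01 and none past either ratio. Over all genes, 0.652% counted as lower and 1.64% as higher, so that a list of this size often has none. Some genes stand in more than 1 list. Tead1 is also among the slow fibre genes, and Myod1 also among those of regeneration. Mstn, encoding myostatin, a brake on muscle growth, had signals of 11.07 in the mutant and 10.88 in the control, and Hdac4 had 8.41 in the mutant and 8.54 in the control. Of 12 genes of regeneration and denervation, 5 were below 0 and none was past either ratio. Myf5, a factor of satellite cells, had 6.06 in the mutant and 5.80 in the control, and Gadd45a, known to be induced by denervation, had 7.76 in the mutant and 7.96 in the control. Of 9 measured heart-restricted genes, 4 were below 0, with Hand2 at 0.24 and Gata4 at -0.09.

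**Figure D5:**
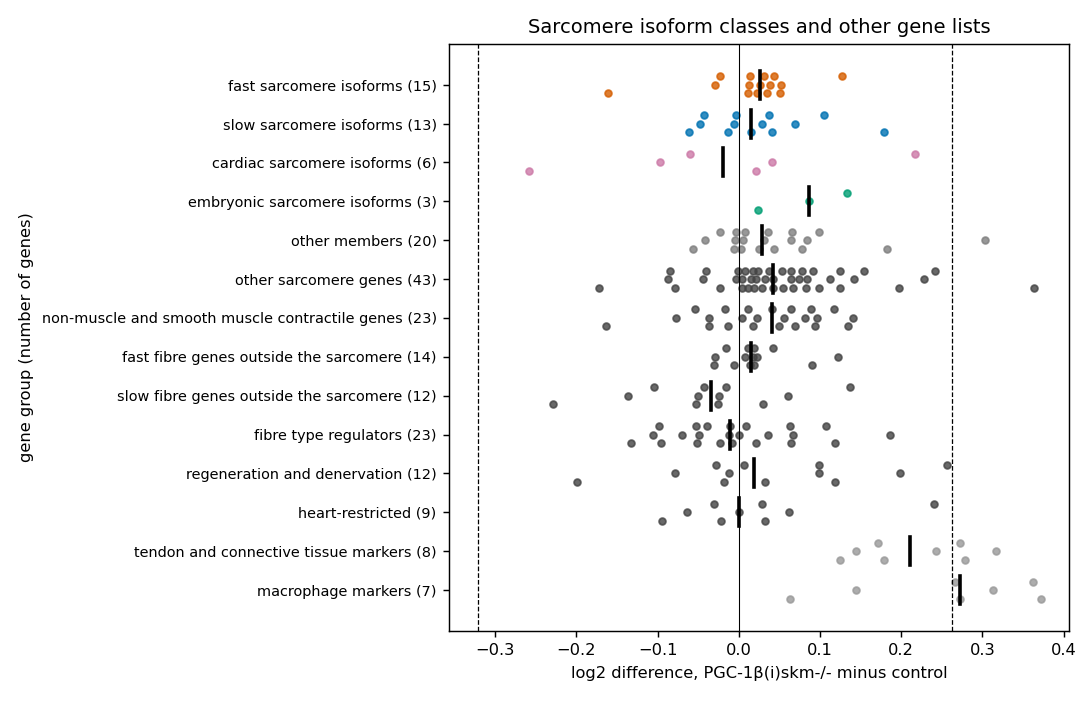
Points are single genes of the sarcomere isoform classes and of other gene lists (vertical axis, with the number of genes measured), placed by their log2 difference on the horizontal axis, mutant minus control. Black bars give medians, and ratios of 0.8 and 1.2 are dashed. Medians of the fast and slow isoforms lie at 0.03 and 0.02, and that of the macrophage markers at 0.27.

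Markers of several other cells had log2 differences above 0, while those of Schwann cells lay below 0. Over all genes, 1.64% counted as higher and 0.652% as lower. All 8 markers of tendon and connective tissue were above 0, with a median of 0.21, 3 of them counted as higher, and log2 signals from 7.42 to 12.63 in the mutant and from 7.25 to 12.48 in the control, and the log2 of their summed signal was 13.64 in the mutant and 13.45 in the control. All 7 macrophage markers were above 0, with a median of 0.27, 5 of them counted as higher, and signals from 5.89 to 8.09 in the mutant and from 5.74 to 7.82 in the control, with a log2 summed signal of 10.21 in the mutant and 9.93 in the control. The 5 smooth muscle markers, cells that share actin and myosin genes with the sarcomere, had differences between -0.02 and 0.08, signals from 5.63 to 9.87 in the mutant and from 5.64 to 9.79 in the control, and a log2 summed signal of 10.58 in the mutant and 10.53 in the control. All 4 endothelial markers were above 0, with a median of 0.12 and a log2 summed signal of 11.35 in the mutant and 11.22 in the control. Both measured Schwann cell markers were below 0, Mbp, encoding myelin basic protein, with signals of 7.26 in the mutant and 7.60 in the control (ratio 0.791, which counts as lower) and Sox10 with 6.36 in the mutant and 6.38 in the control. Of 4 adipocyte markers 1 was below 0, with a median of 0.07 and a log2 summed signal of 11.06 in the mutant and 11.00 in the control, and of 3 satellite cell markers 1 was below 0, with a median of 0.16 and signals from 6.06 to 6.81 in the mutant and from 5.80 to 6.84 in the control. The part of these cells in the values of the sarcomere genes was not tested.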

How the data were processed

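Gastrocnemius RNA of 3 pooled mice per genotype was hybridized to 1 array each. The deposited values are log2 signals. Per the methods, the authors extracted intensities with GeneChip Command Console 3.2 and applied RMA in Expression Console 1.1, that is background correction, quantile normalization and a summary of the probes of each set, so that a shift of all genes together would be lost. The labels name RNeasy for RNA isolation and the methods TRIzol. Probe sets numbered 35556. Of these, 21789 carried 1 gene symbol in the platform annotation (21698 updated by Entrez ID to RefSeq names), while 1621 with several symbols and 12146 unlisted ones did not enter. The probe set of highest mean signal stood for each gene; 54 members had 1 probe set and 3 had several. No signal filter was applied, and the ratio thresholds are those of the methods. For the genome build, the sources used here give none.

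Members and lists were chosen with earlier results of these data known. Genes always described singly are members past a ratio of 0.8 or 1.2, the 10 of largest difference with a mean signal of 6 or more, the heavy chains and the isoform pairs, and of each gene list, cell type markers apart, those past a ratio and up to 2 more. Other members are given with their family, by both signals or by the difference alone. No test was made; the calculation was tested on simulated data. Alternatives were to average all probe sets of a gene, a loess curve (span 0.3) or the median subtracted, signal filters and other ratios. Calculations used Python 3.11.15, pandas 2.3.3, numpy 2.4.6 and statsmodels 0.14.6.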

Additional observations from a re-analysis of the deposited data

How the results depend on the processing

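No paired analysis was possible because there is 1 array per genotype, and for the same reason no replicate could be left out. With ratios of 1/1.1 or less and 1.1 or more, 2 members were lower (Tnni3 and Myh1) and 4 were higher (Xirp1, Actc1, Mybph and Myh7b), against 0 and 1 as reported. The share of all genes past these wider ratios was not computed. Differences of this size were common among the 19936 genes. Myh1 held place 1417 by decrease, and Myh7b, the smallest of the 4 increases, place 1204 by increase. The counts of 2 and 4 members are therefore not read as a trait of sarcomere genes. Restricted to members with a mean log2 signal under 13, a setting chosen after seeing the data, the median was 0.0013 for the fast isoforms and 0.0793 for the slow minus fast values, which then rest on fewer genes. The remaining counts stayed within 1.5 times and the remaining medians within 0.02 under the other settings; the median of the slow isoforms was -0.0040 at a mean signal of 9 or more. With the loess curve subtracted, 57 members shifted by 0.0202 or less, and 2 of them, at 0.0040 or less in size, changed sign. The pair of Tpm3 and Tpm1 lay between -0.02 and 0.06 with the other probe sets of Tpm3, a check added after seeing the data. With the mean of probe sets, 3 members changed sign, Nebl among them at 0.08. No measure of signal over background was used, which limits what can be said of Tnni3, Myh13 and Nebl.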
